A study of Mus musculus with 14 samples.

Results

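The expression data described here came from 8 clonal lines of mouse embryonic stem cells, each heterozygous for a deletion of an enhancer named Chen2008-1. They are 8 of the 14 clones of the series, and the other 6 carry a deletion of another enhancer, Chen2008-25. The parental line, F1 2-1, is a female hybrid of 129 and Castaneus (CAST) mice, and sequence differences between the strains assign a read to the 129 or the CAST copy of its gene. Polyadenylated RNA was enriched by hybrid selection, in which probes pull down the transcripts of a chosen panel of genes, and sequenced. Cells were kept without serum, with leukaemia inhibitory factor (LIF) and MEK and GSK3 inhibitors.

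Clones were grouped by the genotype given in the deposited genotype table. In 6 clones (B8, D3, E3, E7, G3 and H7) the genotype is Het (+/-), and in 2 clones (D10 and D2) it is Het (-/+). The first sign was taken as the 129 chromosome and the second as CAST, so that +/- clones lack the enhancer on the CAST chromosome and -/+ clones lack it on the 129 chromosome. The chromosome with the deletion is called modified below and the other unmodified. The table does not state the order of the signs, and with the other order these names would change places in every value. The 1 -/+ clone of the other enhancer bears on it: for B3gnt7, near that enhancer, its 129 copy stood at 250 CPM (allelic reads scaled to a common library size), against 248 ± 37.0 (SD, n = 5) in clones deleted on both chromosomes. Its CAST copy stood at 713 CPM, against 210 ± 45.1 (SD, n = 5) in those clones. Each clone was 1 sample, all came from 1 parental line, and no clone without a deletion was compared, so the chromosomes of each clone and the reciprocal genotype serve as the controls. With 2 clones on 1 side, an exact permutation test over clones could not give a p below 0.0714.

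An enhancer raises transcription of genes on its own DNA molecule, and in a heterozygous hybrid cell the copy on the other chromosome shares the same nucleus, culture and library. A deletion that acts only in cis therefore pulls the allelic ratio of a target one way in +/- clones and the other way in -/+ clones, while a strain difference in the gene itself stays the same in both. Trim28, which encodes the co-repressor that KRAB zinc-finger proteins recruit to silence retroviral elements in embryonic stem cells, and Zbtb45, which encodes a BTB-domain zinc-finger protein, lie side by side on opposite strands of chromosome 7. In GENCODE a long noncoding transcript of Trim28 that starts on the far side of Zbtb45 makes the annotated spans overlap, with 0 shared exonic bases. The start sites shown next are those of other transcripts, which lie apart.

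The RefSeq promoter windows of these neighbours, the called genes with the largest shifts below, are shown to place the start sites that the data concern. Each covers 250 bases before to 50 bases after the annotated start in build GRCm38.p6, and the Zbtb45 window is chr7:13009803-13010102 on the minus strand and the Trim28 window is chr7:13023902-13024201 on the plus strand. Capitals mark matches on either strand to CCGGAAG, an ETS-type motif, in Zbtb45 and to GGGCGG, the GC box, in Trim28, where both matches read as the reverse complement. No match overlaps another.
Zbtb45: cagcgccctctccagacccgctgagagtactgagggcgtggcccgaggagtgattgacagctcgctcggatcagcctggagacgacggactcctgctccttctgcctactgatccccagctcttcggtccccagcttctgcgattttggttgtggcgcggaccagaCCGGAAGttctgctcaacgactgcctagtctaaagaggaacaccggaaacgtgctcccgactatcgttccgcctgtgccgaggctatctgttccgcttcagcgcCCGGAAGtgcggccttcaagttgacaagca
Trim28: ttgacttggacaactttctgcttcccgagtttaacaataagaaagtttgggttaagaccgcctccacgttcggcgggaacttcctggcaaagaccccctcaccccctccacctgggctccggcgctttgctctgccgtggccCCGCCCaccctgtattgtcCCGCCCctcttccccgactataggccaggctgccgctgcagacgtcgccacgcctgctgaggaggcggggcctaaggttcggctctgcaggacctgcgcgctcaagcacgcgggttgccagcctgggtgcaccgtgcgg
Zbtb45 held 2 CCGGAAG matches and 24 CpG dinucleotides, and Trim28 held 2 GGGCGG matches and 23 CpG, against a median of 7 CpG over promoter windows of this length. Of those windows 80% held fewer CpG than that of Zbtb45 and 78.5% fewer than that of Trim28. CCGGAAG was present in 8.86% of the 32851 windows and GGGCGG in 35.7%. Neither window held TATAAA (in 13.6% of windows), CCAAT (37.4%) or ATGCAAAT (1.74%). These matches describe letters only, and the position of the deleted enhancer was not used here.

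The panel held 471 distinct genes, of which 444 had 10 or more reads (129 plus CAST) on average over the clones and were tested. Allelic reads per clone ran from 135881 in D10 to 1331965 in D3, so 1 of the 2 -/+ clones was the shallowest of all, while D2 had 1147950.

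The allelic ratio of 4 genes differed between the reciprocal genotypes: Zbtb45, Trim28, Ube2m and Zfp446, all within 1 stretch of chromosome 7 and all with relatively less 129 RNA in the -/+ clones. These were 4 of 444 genes tested (0.901%) in edgeR's quasi-likelihood test with Benjamini-Hochberg adjustment, and 0 genes were called in the other direction. At an unadjusted p under 0.05 there were 20 genes (4.5%).

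Of the called genes Zbtb45 had the largest shift. In the +/- clones its log2 ratio of 129 to CAST reads (0.5 added to each count) was 1.24 at the lowest, 1.37 at the median and 1.52 at the highest. It was -1.79 in D10 and -1.82 in D2. In reads, B8 (+/-) had 6302 from 129 and 2467 from CAST, while D2 (-/+) had 2686 and 9484. The genotypes lay far apart, and the 2 -/+ clones were nearly identical although their depths differed widely. The 129 share of Zbtb45 reads was 72.2% ± 1.53 (SD, n = 6) in +/- clones and 22.3% ± 0.262 (SD, n = 2) in -/+ clones. The fitted difference was -3.20 (SE 0.07, 95% interval -3.34 to -3.06, edgeR adjusted p = 2.25e-23). Spread equally over the reciprocal deletions, it puts the modified copy at 33.0% of the unmodified copy (95% interval 31.4% to 34.7%).

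Trim28 shifted in the same direction. Its log2 ratio was 0.89 at the lowest, 1.06 at the median and 1.20 at the highest in +/- clones, and -1.29 in D10 and -1.13 in D2. Again no +/- clone came near a -/+ clone. The fitted difference was -2.26 (SE 0.05, 95% interval -2.37 to -2.16, edgeR adjusted p = 2.25e-23), which puts the modified copy at 45.6% (44.0% to 47.3%) of the unmodified one. This share was larger than that of Zbtb45, with intervals that do not overlap, and the difference between the genes was not itself tested. The Trim28 log2 ratio had an SD of 0.100 (n = 6) among +/- clones and 0.111 (n = 2) among -/+ clones. The edgeR SE, interval and p for Trim28 may be too narrow for this spread among clones.

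Ube2m, which encodes the E2 enzyme that transfers NEDD8 to cullins, moved less. Its log2 ratio ran from 0.31 through a median of 0.52 to 0.62 in +/- clones and was -0.03 in D10 and -0.14 in D2. The +/- clones all favoured the 129 copy and the -/+ clones were close to equal copies, with no overlap. The difference was -0.61 (SE 0.12, 95% interval -0.84 to -0.37, edgeR adjusted p = 0.00282), and the modified copy stood at 81.0% (74.6% to 88.0%) of the unmodified.

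Zfp446, a zinc-finger gene on the Zbtb45 side, had a log2 ratio between -0.41 and 0.09 in +/- clones, with a median of -0.30, and -0.80 in D10 and -1.0 in D2. Here most +/- clones already had more CAST than 129 reads, and the -/+ clones leaned further to CAST. The difference was -0.70 (SE 0.17, 95% interval -1.05 to -0.36, edgeR adjusted p = 0.0278), or 78.3% (69.6% to 88.2%) of the unmodified copy. Under limma on per-clone log2 ratios neither gene passed (adjusted p = 0.0982 for Ube2m and 0.249 for Zfp446). Without D2, edgeR's adjusted p was 0.232 for Ube2m and 0.442 for Zfp446, and without E3 or E7 it was 0.0671 or 0.0609 for Zfp446.

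**Figure D1:**
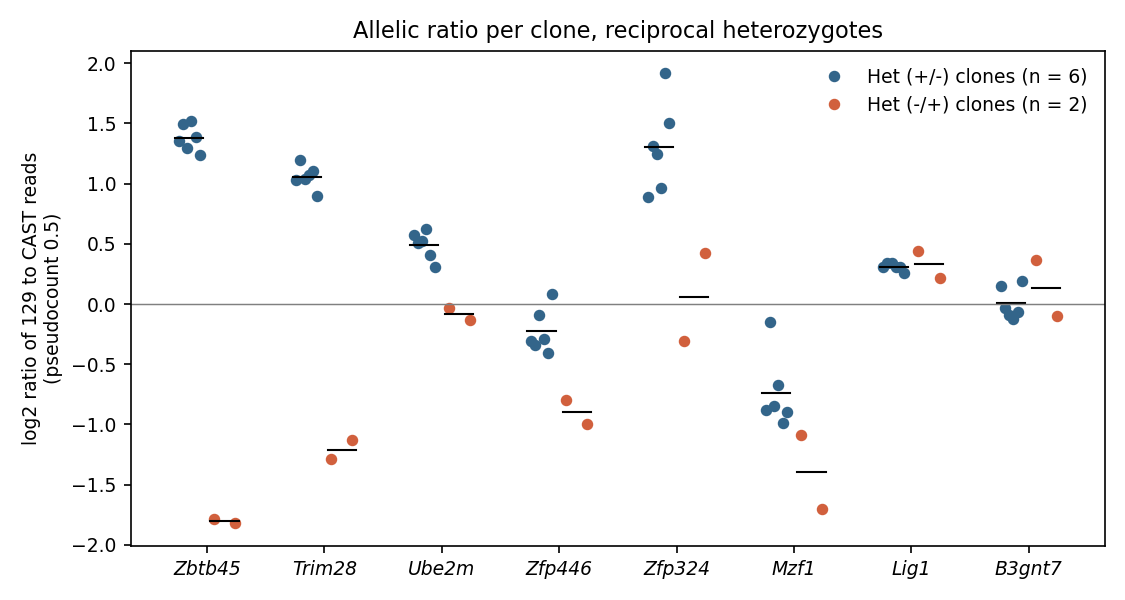
Log2 ratio of 129 to CAST reads (vertical axis, 0.5 added to each count) for 8 genes (horizontal axis), 1 point per clone, blue for the 6 Het (+/-) and orange for the 2 Het (-/+) clones, with a line at each genotype's mean. Zbtb45 and Trim28 lie above 0 in every +/- clone and below 0 in both -/+ clones, Ube2m and Zfp446 shift less, without overlap, and Lig1 and B3gnt7 overlap.

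The mean of the genotypes, in which equal and opposite effects of the deletion cancel, gave the strain ratio. It was -0.21 for Zbtb45, -0.08 for Trim28, 0.20 for Ube2m and -0.56 for Zfp446 on the log2 scale of 129 over CAST. Trim28 was thus near balance. The shift between genotypes counts the deletion once on each chromosome, and for Zfp446 the strain ratio was larger in size than the shift per chromosome. Over the 413 autosomal genes tested the median strain ratio was 0.01, with 41 genes more than 2 times higher from 129 and 46 more than 2 times higher from CAST. Alyref, an mRNA export adaptor, lay just short of that cut: its strain ratio was -0.94, and its difference between genotypes was -0.03 (SE 0.06).

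The run of panel genes around Trim28 was examined next. Within 1 Mb of its start, in the order of a later annotation (GENCODE M21), there were 20 panel genes, of which 19 were tested. Slc27a5, a bile acyl-CoA synthetase gene, had a mean of 7.125 reads per clone and was not tested. Of these 19 genes 4 were called, against 0.901% of all genes, and 16 had a negative difference, against 214 of all 444 genes. Their median difference was -0.29, against 0.01 over all genes tested.

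Beyond the called genes, 3 neighbours had genotypes that did not overlap, as did 35 of all 444 genes (7.88%). Zfp324, next to Zfp446, had log2 ratios from 0.89 to 1.92 in +/- clones (median 1.28), -0.30 in D10 and 0.42 in D2, a difference of -0.99 (SE 0.41) from a mean of 117 reads per clone. Mzf1, the myeloid zinc-finger gene next to Ube2m, ran from -0.99 to -0.15 in +/- clones (median -0.86) and was -1.08 in D10 and -1.70 in D2, a difference of -0.86 (SE 0.36) from 139 reads. Pla2g4c, a phospholipase gene at the far end of the run, differed by -0.43 (SE 0.28). None of these 3 passed the test (edgeR adjusted p = 0.987 for each). Zfp324 and Mzf1 had fitted differences larger than that of Ube2m, with larger errors, on fewer reads and with -/+ clones that lay apart from each other. What kept them from passing was not tested. Without D2 the difference was -1.58 for Zfp324, -0.43 for Mzf1 and -0.67 for Pla2g4c.

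Other neighbours, some of them deeply covered, had intervals that included 0. Lig1, the DNA ligase that joins Okazaki fragments, had a mean of 8837 reads per clone and a difference of -0.01 (SE 0.05, 95% interval -0.12 to 0.10), so its modified copy stood between 95.8% and 104% of the unmodified. Zfp110, with 1053 reads, differed by -0.17 (SE 0.15, 95% interval -0.48 to 0.15). The zinc-finger gene Zscan18 differed by -0.51 (SE 0.33). The remaining neighbours lay between -0.64 (SE 0.67) for Zfp128 and 0.53 (SE 1.5) for Cabp5, both covered by few reads.

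**Figure D2:**
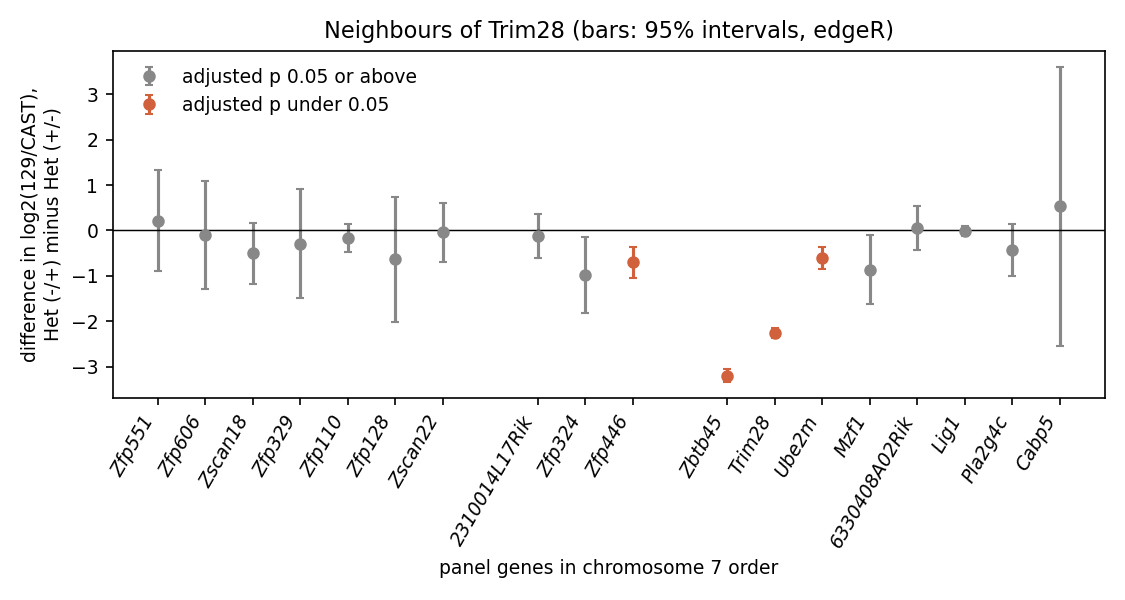
Difference in log2(129/CAST), Het (-/+) minus Het (+/-), with 95% intervals (vertical axis) for tested panel genes within 1 Mb of Trim28, in chromosome order (horizontal axis; gaps are places of genes not shown). The 4 called genes, in orange, reach from Zfp446 at -0.70 through Zbtb45 at -3.20 and Trim28 at -2.26 to Ube2m at -0.61.

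A stretch of the same extent on chromosome 1, around B3gnt7, served as a comparison, since these clones carry no deletion there. Of its 20 panel genes 17 were tested and 0 were called, with 2 negative differences and a median of 0.08. Its differences thus also lay mostly on 1 side, the positive one, so a count of signs alone does not set the chromosome 7 stretch apart. B3gnt7, which encodes a glycosyltransferase, differed by 0.04 (SE 0.13, 95% interval -0.22 to 0.30).

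Among autosomal genes with a mean of at least 50 reads on each allele, the 290 outside the chromosome 7 stretch had a median difference of 0.01, and 5% to 95% of them lay between -0.29 and 0.21. Their extremes were -0.70 for Cd59a, a complement inhibitor, and 0.52 for Atp8a1, a lipid flippase, neither of which passed the test. The 13 neighbours at the same depth had a median of -0.43, and 12 of them were negative. The fifth smallest p in the ratio test belonged to linc1509, a noncoding RNA that was not placed in the annotation. Its log2 ratio ran from -0.43 to 0.30 in +/- clones and was 0.91 in D10 and 0.51 in D2, without overlap, a difference of 0.69 (SE 0.19, edgeR adjusted p = 0.129). It passed without D3 (edgeR adjusted p = 0.0181) or without H7 (edgeR adjusted p = 0.0465).

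Per chromosome, the median log2 ratio over the 22 chromosome 7 genes was 0.29 ± 0.0857 (SD, n = 6) in +/- clones and -0.07 ± 0.125 (SD, n = 2) in -/+ clones. No +/- clone overlapped a -/+ clone (exact permutation test, two-sided p = 0.0714, the smallest that this design allows, and 0.612 after Benjamini-Hochberg adjustment over the chromosomes). The 4 chromosome 7 genes outside the stretch differed by 0.15 in the other direction (exact permutation p = 0.143). Over the other autosomes the difference in the median was -0.006.

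The 129 and CAST columns were then tested singly, which asks whether each strain's copy is lower where its own enhancer is missing. Zbtb45 and Trim28 were called on both, as 2 of 432 genes tested (0.463%) for the 129 copy and 2 of 419 (0.477%) for the CAST copy. At an unadjusted p under 0.05 there were 14 genes (3.24%) and 12 genes (2.86%). In CPM, the modified copy of Zbtb45 lay between 2200 and 2873 in the +/- clones and at 2233 in D10 and 2259 in D2, with the unmodified copy between 6218 and 7066 in the +/- clones and at 7716 in D10 and 7977 in D2. The modified copy stood at a like level whichever strain carried the deletion.

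The 129 copy of Zbtb45 without its enhancer was at 34.0% (95% interval 29.3% to 39.4%) of the 129 copy with it, or -1.56 on the log2 scale (SE 0.10, edgeR adjusted p = 2.13e-07). For the CAST copy the value was 32.3% (27.8% to 37.7%), or -1.63 on the log2 scale (SE 0.10, edgeR adjusted p = 4.05e-07). The reciprocal deletions thus gave nearly the same residual level, although a test of their difference needs a clone without a deletion.

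For Trim28 the modified 129 copy was at 48.2% (36.6% to 63.5%) of the unmodified 129 copy (edgeR adjusted p = 0.0137) and the modified CAST copy at 42.9% (31.2% to 59.0%, edgeR adjusted p = 0.0161). Both calls rested on single clones: without D2 edgeR's adjusted p was 0.334 for the 129 copy, and without D10 it was 0.736 for the CAST copy. The CAST call was also lost without B8, E3 or E7 (edgeR adjusted p = 0.0544, 0.069 and 0.0672). The intervals are wider than that of the ratio within clones, and the summed level of Trim28 varied widely among clones, as described below. Ube2m was at 86.8% (73.0% to 103%) for 129 and 76.8% (65.6% to 90.0%) for CAST, and Zfp446 at 74.5% (60.8% to 91.1%) and 83.6% (66.0% to 106%). Neither passed the test on a single allele (edgeR adjusted p from 0.453 to 0.998), and all 4 values were below 100%.

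**Figure D3:**
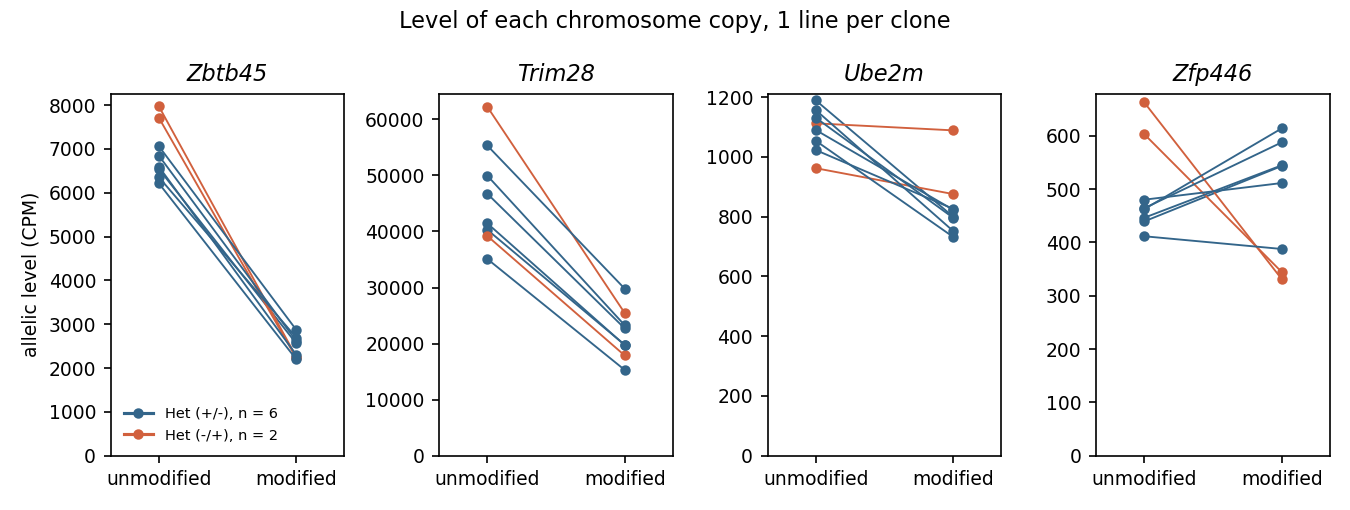
Level in CPM (vertical axes from 0, a scale per gene) of the unmodified and the modified chromosome copy of 4 genes, 1 line per clone, blue for Het (+/-) and orange for Het (-/+). Every line falls for Zbtb45, Trim28 and Ube2m, whereas for Zfp446 it falls in both -/+ clones and rises in most +/- clones, where the modified copy is the CAST copy that the strain ratio favours.

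Summed over both copies, no gene passed the test between the genotypes. Of 444 genes 0 were called by edgeR (0%), 0 by DESeq2, and 9 had an unadjusted p under 0.05 (2.03%). Zbtb45 lay between 8419 and 9939 CPM in +/- clones, with a median of 9082, and at 9948 CPM in D10 and 10236 in D2. The ranges just failed to overlap, as for 19 of 444 genes (4.28%, of which 8, or 1.8% of all, were lower in -/+ clones), and the log2 difference was 0.14 (SE 0.09, 95% interval -0.04 to 0.33). For Ube2m it was 0.08 (95% interval -0.13 to 0.29) and for Zfp446 -0.01 (-0.28 to 0.26). Since both genotypes lack 1 enhancer copy, this contrast does not measure the loss itself.

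**Figure D4:**
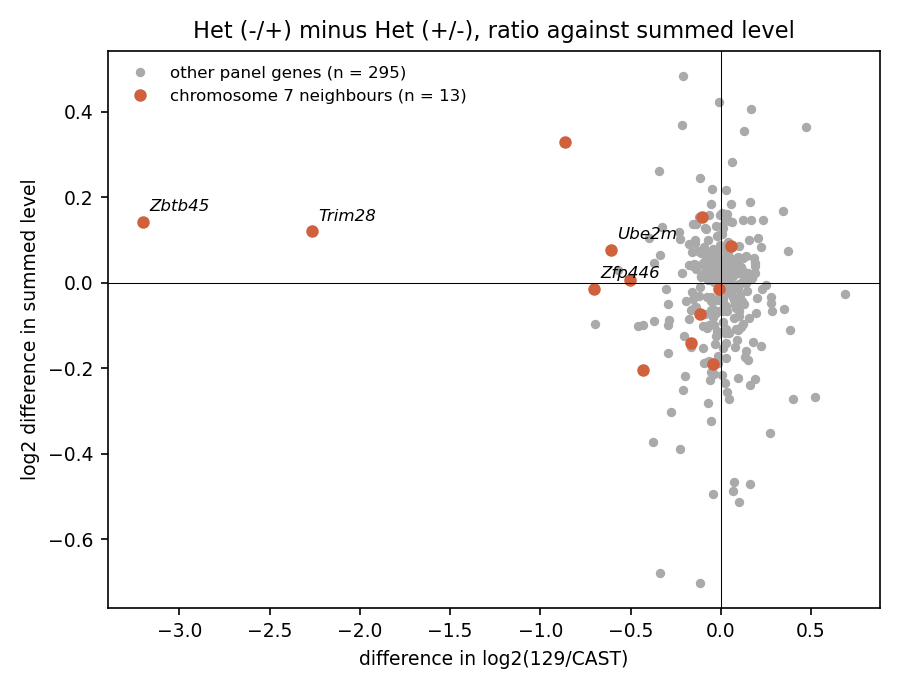
Difference between genotypes (Het (-/+) minus Het (+/-)) in log2(129/CAST) on the horizontal axis and in log2 summed level on the vertical axis, for genes with a mean of at least 50 reads on each allele, with the 13 chromosome 7 neighbours in orange and 295 other panel genes in grey. Zbtb45 at -3.20 and Trim28 at -2.26 stand apart from the cloud on the horizontal axis and within it on the vertical axis.

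The genes of smallest p for the summed level are given as values, since none passed (edgeR adjusted p = 0.997 for each). Snhg11, a host gene of small nucleolar RNAs, had between 233 and 406 CPM in +/- clones (median 312), 172 in D10 and 213 in D2, a log2 difference of -0.70 (SE 0.24). Arl16, a small GTPase gene, had between 177 and 231 CPM (median 193), 266 in D10 and 283 in D2, a difference of 0.48 (SE 0.18). For both the genotypes did not overlap. Sult4a1, a sulfotransferase gene, differed by -0.68 (SE 0.26), Itgb7, an integrin subunit, by -0.47 (SE 0.18), and Gsdmd, which encodes a pore-forming protein, by -0.49 (SE 0.20), each with overlapping clones. On single alleles, Amhr2, a hormone receptor gene, differed by -0.51 (SE 0.18) for 129 and Csad, a taurine synthesis enzyme gene, by -0.50 (SE 0.16) for CAST, and neither passed.

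Trim28 took more of the reads than any other gene, with a mean of 46208 per clone, and its summed level went with depth. It was 87733 CPM in D10, the shallowest clone, then 85147 in H7, 73251 in G3, 69462 in E3, 61196 in E7, 60095 in B8, 57093 in D2 and 50407 in D3, the deepest. This is the exact reverse of the order of total reads (rho = -1, exact permutation p = 4.96e-05, the smallest it can give, 0.000397 after Benjamini-Hochberg adjustment over 8 relations; Pearson r with log2 reads = -0.94, exact permutation p = 2.48e-05, adjusted p = 0.000132). Without the 2 clones farthest from the median depth r was -0.98. The genotypes were interleaved, and the log2 difference was 0.12 (SE 0.19, 95% interval -0.30 to 0.54).

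The panel genes with the next most reads were Hnrnpab, an RNA-binding protein gene, Rpl8, a ribosomal protein gene, and Eif3d, a translation initiation factor gene. Their rho with depth was -0.98, -0.98 and -0.86 over the 8 clones. In the 6 Chen2008-25 clones it was -0.94 for Trim28 and -1 for Rpl8, -0.83 for Hnrnpab and -0.09 for Eif3d. Over all 444 genes the median was 0.02, and 2 genes, Trim28 among them, had a rho of -1. With log2 library size in the model, a term chosen after this relation was seen, the difference in summed Trim28 became -0.10 (SE 0.08), and its single-copy differences were -1.24 for 129 (edgeR adjusted p = 7.15e-07) and 0.97 for CAST (edgeR adjusted p = 0.000174). The cause of the relation was not tested, and the ratio within a clone does not use the library size.

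**Figure D5:**
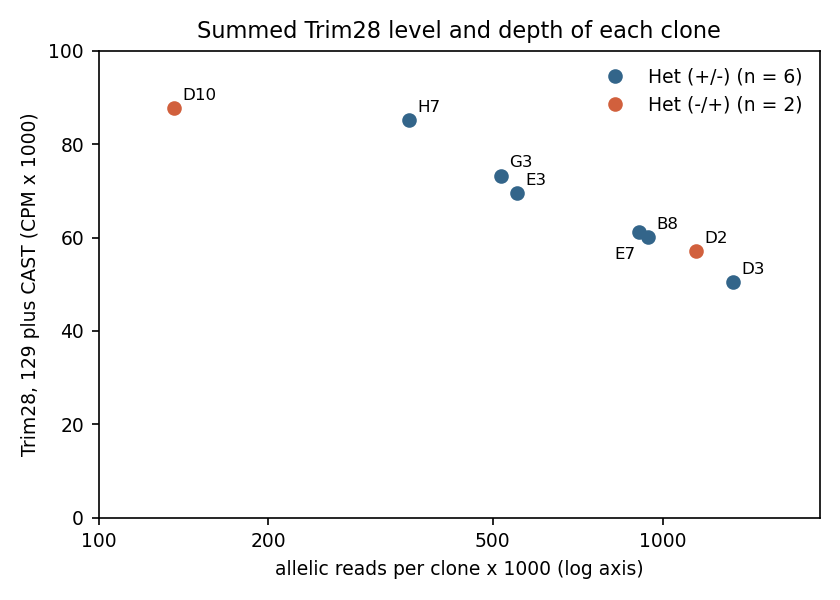
Summed Trim28 level in CPM × 1000 (vertical axis, from 0) against allelic reads per clone × 1000 (horizontal log axis), 1 labelled point per clone, blue for the 6 Het (+/-) and orange for the 2 Het (-/+). The level falls from 87733 CPM in D10 to 50407 CPM in D3 with no exception in the order.

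Clones of the same genotype also differed slightly in the ratio. Among the 6 +/- clones, H7 had the lowest ratio of Zbtb45, Trim28 and Ube2m and the highest of Zfp446. It was also the shallowest of these 6, with 355677 allelic reads. Against binomial counting error, the chi-square per degree of freedom was 23.6 for Trim28 and 3.66 for Zbtb45, but 0.760 for Ube2m and 0.831 for Zfp446. Across these 6 clones Zbtb45 and Trim28 ratios correlated with r = 0.80 (exact permutation p = 0.05) and rho = 0.77 (exact permutation p = 0.103), and without E7 and H7 r was 0.94. Trim28 and Zfp446 had an r of the opposite sign and like size, -0.82 (exact permutation p = 0.0528; rho = -0.77, exact permutation p = 0.103; r = -0.62 without D3 and H7). For Zbtb45 and Zfp446 r was -0.75 (exact permutation p = 0.0778). These were among 6 gene pairs computed, and after Benjamini-Hochberg adjustment none passed (adjusted permutation p = 0.156 for each of these 3).

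Gene lists covered the pathways that Trim28 and Ube2m belong to and other functions of these cells. Of 26 genes of the Trim28 repressor pathway the panel held 2, Trim28 and Cbx5, which encodes the heterochromatin protein HP1-alpha and whose ratio differed by -0.04. Of 18 neddylation genes it held Ube2m alone. Among 5 tested chromatin regulators the call was Trim28 itself, already described above (0.901% of all genes were called), and the median ratio difference of the list was 0.04, against 0.01 over all genes. Of 12 tested RNA-processing and ribosome-assembly genes 0 were called and the median was 0.09, and Utp6, a ribosome-assembly factor, differed by 0.19 (SE 0.11) without overlap. Of 12 tested metabolic genes 0 were called, among them the lactate exporter Slc16a3, whose summed level differed by -0.49 (SE 0.36). Of 6 replication and proliferation genes 0 were called, and the summed level of the growth regulator Myc differed by 0.24 (SE 0.14). In the summed level 0 genes of any list were called.

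Of the fixed pluripotency markers the panel held 1 of 13, Tex19.1, so the labelled cell type could be checked on that gene only. Its summed level was 4313 ± 375 CPM (SD, n = 6) in +/- clones, 4504 in D10 and 3470 in D2, and its ratio differed by -0.20 (SE 0.09, edgeR adjusted p = 0.987). Early differentiation markers were represented by 2 of 13, Krt8 and Krt18, neither called, and feeder fibroblast markers by 0 of 8.

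The X-linked reads came almost entirely from the 129 copy in all 8 clones. Over the 14 X-linked panel genes there were 29616 reads from 129 and 204 from CAST, and the CAST share per clone ran from 0.556% in H7 (95% Wilson interval 0.302% to 1.02%) to 1.54% in D10 (0.810% to 2.89%). Rlim, a ubiquitin ligase gene that promotes X inactivation, had 10629 reads from 129 and 1 from CAST. Xist, the RNA that coats the inactive X, had 1799 and 11, and its antisense partner Tsix 3219 and 11. Xist and Tsix share 1980 exonic bases on opposite strands, and no source used here says if strand was counted, so reads from those bases cannot be assigned to either. Chic1 had 0 CAST reads in all clones, which allows a share of up to 0.471% if each read is independent. Reads were not independent, as described below, so this bound and the Wilson intervals are too narrow.

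The summed X-linked level was 4902 ± 535 CPM (SD, n = 6) in +/- clones, 4590 in D10 and 5179 in D2 (exact permutation test, two-sided p = 1). In the Chen2008-25 clones, from the same parental line, the CAST share was 0.375% to 0.951%. Loss of the CAST X chromosome and silencing of it cannot be told apart in these counts. The X-linked genes therefore carried no usable allelic ratio, and the genes called by the ratio test were all autosomal.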

How the data were processed

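The authors deposited whole-number read counts per gene in a 129 and a CAST column for each clone, not normalized, per the file headers. Per the submitters' processing notes, the genome build was mm9. The aligner, allele assignment and counter are not given in the sources used here. Genotypes came from the deposited genotype table, whose text is of another kind, per the file headers. Hybrid selection batch and probe set were the same in all clones there. Between 79.1% and 88.6% of counts from 1 to 19 were even, as counting both mates gives, so reads are not independent molecules. Intervals on reads address counting error only, and are too narrow for it because they take each read as independent. Of 472 genes 1 duplicate (Tsix listed again under a joint name) was left out. Symbols matched GENCODE M21 for 429 genes, older symbols for 23, and 19 were not placed. All 16 pairs of same-genotype clones differed beyond counting error (chi-square over degrees of freedom 2.11 to 13.0 on halved counts).

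Tests used edgeR 4.0.16 in R 4.3.3. The ratio model, on both allele columns, had a clone term, an allele term and an interaction of allele with genotype, at 1 library size per clone. Summed and single-allele counts were fitted by genotype with TMM factors from the sums (single alleles: a mean of at least 5 reads on that allele). CPM are TMM-scaled. Adjusted p-values are Benjamini-Hochberg over all genes tested, threshold 0.05. Intervals are 95%. P-values reflect spread among clones of 1 line, which may be technical in part. Alternatives were DESeq2 1.42.0, limma 3.58.1, filters of 0 or 50 reads, halved counts, other size factors, all 14 clones in the fit, and leaving out each clone. The fits were tested on simulated data. Named genes were those called, or the 5 of smallest p where fewer passed, the tested chromosome 7 neighbours and the list members, of which the text gives some. A few members are not reported here. Genes of most reads, and Cd59a, Atp8a1, were named after their values were seen. The clones, tests, lists and this rule were chosen with earlier results of these data known.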

Additional observations from a re-analysis of the deposited data

Results flagged for a closer look

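Among the 6 +/- clones, 3 values lay far from the other clones of the genotype by Dixon's criterion at the 95% level. The log2 ratio of Mzf1 was -0.15 in D3, against -0.99 to -0.67 in the others. The log2 ratio of Alyref was -1.03 in H7, against -0.93 to -0.88. The summed level of Zfp446 was 799 CPM in H7, against 983 to 1076 CPM. The criterion was applied 29 times, and chance gives about 1 such value in 20.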

How the results depend on the processing

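Over all alternatives, Zbtb45 and Trim28 passed the ratio test in 15 of 15 (differences -3.23 to -3.17 and -2.35 to -2.19), Ube2m in 12 of 15 and Zfp446 in 10 of 15. Called ratios numbered 2 under limma with a pseudocount of 0.5 and 2 with 5, and 2 (without D2) to 6 (without H7) when a clone was left out. Leaving out a clone gave 1 (without D2) to 3 calls for the 129 copy and 1 (without B8, D10, E3 or E7) to 2 for the CAST copy, and a median strain ratio of 0.00488 to 0.0345 (the highest without D10). Without D10 or D2 the lone -/+ clone was assumed to vary like the others. Some uncalled values changed sign. The ratio difference of Lig1 was 0.0181 and 0.0171 under limma with pseudocounts 0.5 and 5, and that of B3gnt7 -0.0135 with halved counts. With log2 library size as a covariate the summed difference was -0.10 for Trim28 and 0.0215 for Zfp446. Leaving out a clone gave ratio differences of -0.098 to 0.13 for Lig1, -0.099 to 0.37 for B3gnt7, -0.092 to 0.012 for Cbx5 and -0.108 to 0.0092 for Alyref. It gave summed differences of -0.22 to 0.40 for Trim28, -0.045 to 0.21 for Ube2m, -0.062 to 0.014 for Zfp446, -0.022 to 0.43 for Myc and -1.54 to 0.20 for Slc16a3. The count of 0 summed calls held in every alternative run. The cause of these changes was not tested. No paired analysis was possible because the clone numbers only name clones and no clone has both genotypes. The 2 -/+ clones and the 135881 reads of D10 limit the precision.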
